A study of Gallus gallus with 4 samples.

Results

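Genes of RNA processing and ribosome biogenesis were described in trunk neural tube cells of chick embryos that received the homeobox gene Hoxb8. The genes were chosen by symbol, as every line of the deposited table with a mean above 0 whose symbol belongs to named families of RNA helicases, splicing factors, nucleolar and ribosome assembly factors, RNA polymerase subunits, mRNA 3′ end, decay and export factors, RNA modifying enzymes or LIN28. Of the 17108 genes in the table, 26 met this rule, among only 1432 that carry a symbol. A further 4 matching symbols (BOP1, LSM12, POLR2I and RBM14) were listed at 0 and are no members. Of the 26 members, 25 had an adjusted p-value. METTL11B lay below the authors' filter on the mean (5.11 normalised counts, against a lowest tested mean of 17.5 over all genes).

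The Hoxb8 group held 2 libraries from neural tubes electroporated in the egg at stage 11 of the Hamburger-Hamilton (HH) series, which orders chick embryos by their form, with Hoxb8-pCIG at 1 µg/µl together with pCIG at 1 µg/µl. The control group held 2 libraries from neural tubes given pCIG at 2 µg/µl, so the total plasmid concentration was the same in both groups. The plasmid pCIG marks transfected cells with green fluorescent protein (GFP). In both groups the fluorescent part of the neural tube was dissected after 18 hours, and live GFP-positive cells were sorted. Polyadenylated RNA was sequenced after linear amplification of the cDNA. The study asks how HoxB genes act on neurons leaving the neuroepithelium, and the comparison used here asks which transcripts differ when Hoxb8 is added.

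Ribosome production starts in the nucleolus, where RNA polymerase I transcribes ribosomal RNA and a large set of assembly factors cuts, folds and modifies it into subunits. Pre-mRNA is spliced by small nuclear ribonucleoproteins with the help of SR proteins and other RNA-binding factors, is cut and polyadenylated at its 3′ end and leaves the nucleus through the nuclear pore. Dividing progenitors, such as those of the early neural tube, have a high demand for new ribosomes.

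The deposited file gives, for each gene, 1 mean normalised count over the 4 libraries, a log2 fold change of Hoxb8 over control with its standard error (SE), a p-value and an adjusted p-value, and no value per library. A positive fold change is higher in Hoxb8, going by the table's title, whose WT can only be the pCIG group, as the labels give no other. On average a library held 79237283 normalised counts, of which the members held 0.326 percent. Nothing in the labels says that the 2 libraries of a group came from separate embryo pools, so the p-values rest on the spread between these libraries, which may be technical. The SE of a gene need not follow the spread of its own libraries, as DHX32 below shows. HOXB8 itself has no line under its symbol, so the labels were not checked on that gene. Of the 9 neural progenitor markers looked for, 0 stood in the table under their symbol, and NEUROD4, the 1 neuron marker with a line, was listed at 0, so the tissue could not be checked on its markers either. In sorted bulk samples, fewer cells of a type and less RNA per cell cannot be told apart.

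Of the 25 tested members, 5 fell in Hoxb8 and 0 rose in the authors' deposited DESeq2 table (adjusted p under 0.05), where 15.2 percent of all 12574 tested genes passed, 6.49 percent lower and 8.72 percent higher. The 5 were the ribosome biogenesis genes TSR1, RRN3 and UTP3 and the splicing genes PRPF39 and SRSF1. Their falls were small, with Hoxb8 levels between 0.713-fold (PRPF39) and 0.794-fold (SRSF1) of control. In all, 20 of the 25 had a negative fold change, with a median of -0.13 on the log2 scale against -0.0053 over all tested genes. The 1132 tested genes with a symbol outside the families had a median of 0.04, and 45 percent of them were negative. Their median mean was 1440 normalised counts, against 7370 for the members, so they are not of like level. Of all tested genes 50.9 percent were negative, but 61.6 percent at means of 5000 to 10000, where 5 members lay, and 74.4 percent at means over 10000, where 9 lay. Centred on genes of like level, 16 of 25 members were negative, against 50 percent of all genes. With genes over 10000 put at 0 these were 14 of 25, against 32 percent of all genes. That shift is the same for every gene and leaves the trend with level in place. The 32 percent is therefore no share at like level, as all tested genes had a median mean of 2340. At an unadjusted p under 0.05, 8 members were lower and 0 higher, against 12.7 percent of all tested genes lower. At means of 5000 to 10000 these were 2 of 5 members, against 18.1 percent of all tested genes. Over 10000 they were 5 of 9, against 27.9 percent. Centred on genes of like level, 5 of 25 members were lower at this p, against 10.7 percent of all genes. None of the 26 members had a deposited fold change of 2-fold, the extremes on the log2 scale being -0.49 (PRPF39) and 0.41 (DHX58).

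All 5 calls were lost when the level of a gene was taken into account. Their fold changes stayed negative, but these genes were named for falls larger than any median subtracted from them. Those medians ran from -0.12 (SRSF1) to -0.027 (RRN3), so the kept sign tests nothing. The median log2 fold change of all tested genes was 0.116 at means under 1000, 0.0061 at means of 1000 to 5000, -0.062 at means of 5000 to 10000 and -0.125 at means over 10000. Among genes over 10000, 15.6 percent were called lower, and 9 of the 25 tested members lay there. The median of these 9 members was -0.27, and 3 of them were called lower. Every fold change was then centred on the median of up to 501 genes nearest in rank of the mean, fewer at the ends. Centred so, 0 of 25 members passed, against 12.6 percent of all genes (5.02 percent lower), and the members' median was -0.052. The 5 genes called as deposited then ran from -0.37 (PRPF39) to -0.21 (SRSF1). After a shift that put the median of genes over 10000 at 0, 0 members were called, and their median was -0.0087. Of all genes 17.6 percent were called under this shift, but only 2.87 percent lower, so few lower calls were left for any gene. With the deposited scores divided by their central spread of 1.69, 0 of 25 passed as well, against 2.5 percent of all genes (0.596 percent lower). The part of mean level, or of anything that varies with it, in these falls was not tested.

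**Figure D1:**
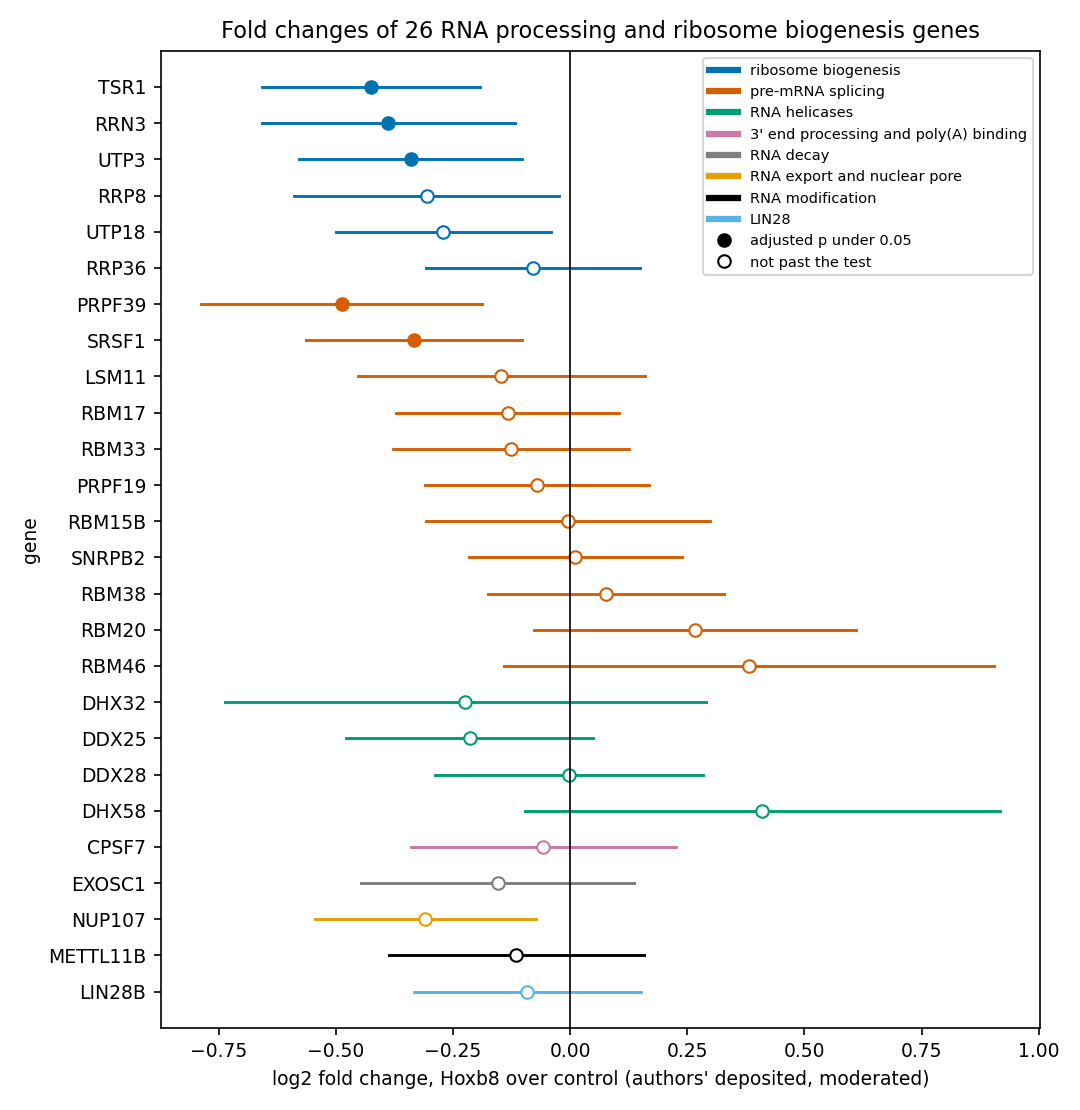
Deposited log2 fold changes of the 26 members, Hoxb8 over control, with 95% intervals (1.96 times the deposited standard error), coloured by gene list and sorted within each. All 6 tested ribosome biogenesis genes lie left of 0 as deposited (RRP36 turned positive with genes over 10000 put at 0), and filled points mark the 5 genes with an adjusted p under 0.05. The intervals are of values moderated toward 0. The counts of METTL11B and DHX58 give log2 ratios outside their intervals (-1.72 and 1.11).

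The ribosome biogenesis list had 6 tested members, of which 3 fell, and all 6 fold changes were negative (median -0.32, range -0.42 to -0.079), except that RRP36 turned positive with genes over 10000 put at 0. Of all tested genes, 6.49 percent were called lower, with 9.51 percent at means of 5000 to 10000 and 15.6 percent over 10000. Negative were 50.9 percent of all tested genes, with 61.6 percent at means of 5000 to 10000 and 74.4 percent over 10000. TSR1, a factor of small ribosomal subunit maturation in the cytoplasm, had the lowest p of all members. At a mean of 12630.2 normalised counts it fell by 0.42 ± 0.12 on the log2 scale (SE, here and below), a ratio of 0.745 with a 95% interval of 0.634 to 0.875 (adjusted p = 0.00429 in the authors' deposited table). RRN3, the initiation factor that brings RNA polymerase I to ribosomal DNA, fell by 0.39 ± 0.14 (the authors' deposited table, adjusted p = 0.0365, mean 5349.6). UTP3, a component of the small subunit processome that assembles on the growing ribosomal RNA, fell by 0.34 ± 0.12 (adjusted p = 0.0367, mean 7369 in the authors' deposited table). Of the 500 genes nearest in mean, 5.6 percent had a lower fold change than TSR1, 6 percent than RRN3 and 12 percent than UTP3, which describes genes already named for their low values and tests nothing.

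The other 3 ribosome biogenesis genes did not pass. RRP8, a nucleolar methyltransferase, stood at -0.31 ± 0.14 (the authors' deposited table, adjusted p = 0.145, mean 2487), and UTP18, another processome component, at -0.27 ± 0.12 (adjusted p = 0.102, mean 12522). Both had 95% intervals that lay below 0 before adjustment, to -0.59 for RRP8 and to -0.50 for UTP18. RRP36, a factor of early ribosomal RNA cleavage, stood at -0.079 ± 0.12 (the authors' deposited table, adjusted p = 0.726, mean 9205), and its 95% interval ran from -0.31 to 0.15. RRP36 lay in the middle of its level, with 49.8 percent of neighbouring genes below it. Centred on genes of like level, TSR1 stood at -0.31 and RRN3 at -0.36 on the log2 scale and neither passed, with the lowest adjusted p-values of any member under that setting (0.0642 and 0.0646). UTP3 stood at -0.25 (adjusted p = 0.174).

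Of the splicing list, 11 members were tested, 2 fell and 0 rose, with a median log2 fold change of -0.071. These 2 are 18.2 percent of the list, against 15.2 percent of all tested genes called in either direction and 6.49 percent called lower. At means over 10000, where both of the 2 lay, 15.6 percent of all tested genes were called lower. The list follows gene families, so it also holds RNA-binding genes known mainly for other steps. PRPF39, a splicing factor of the ribonucleoprotein that recognises the 5′ splice site, had the largest fall, -0.49 ± 0.15 at a mean of 13345 (adjusted p = 0.0144 in the authors' deposited table). Centred on genes of like level it stood at -0.37 (adjusted p = 0.0942), and 2.4 percent of its 500 neighbours in level had a lower fold change. This share, like that of SRSF1 below, describes a gene already named for its low value and tests nothing. The SE of PRPF39 was 1.28 times that of the median gene of like mean, the highest such ratio among the tested members. SRSF1, an SR protein that binds exonic enhancers and selects splice sites, fell by 0.33 ± 0.12 at the members' highest mean, 45502 (adjusted p = 0.0347 in the authors' deposited table). Around SRSF1, 15.5 percent of genes of like level had a lower fold change and 19.5 percent were called lower too, and its centred fold change was -0.21 (adjusted p = 0.257). In the reference gene table, of assembly GRCg7b and not the Galgal4 build of the counts, the spans of 13 of the 25 matched members overlap that of another gene. Among them are 4 of the 5 called members, with VEZF1 for SRSF1, RUFY3 for UTP3 and genes without a name for TSR1 and RRN3. The share over all genes is not given here, so 4 of 5 does not set the called members apart. PRPF39 was not matched. Whether reads were shared with these neighbours cannot be told here.

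Other splicing genes did not pass. PRPF19, the ubiquitin ligase that gives its name to a complex activating the spliceosome, stood at -0.071 ± 0.12, and SNRPB2, a protein of the ribonucleoprotein that recognises the branch point, at 0.011 ± 0.12 (the authors' deposited table, adjusted p = 0.768 and 0.967). The 95% interval of SNRPB2 ran from -0.22 to 0.24, so a change as large as that of PRPF39 lay outside it. Relative to genes of like level both were above 0, PRPF19 at 0.074 and SNRPB2 at 0.16. LSM11, which belongs to the particle that cuts histone pre-mRNA, stood at -0.15 ± 0.16 (the authors' deposited table, adjusted p = 0.600). RBM17, a splicing factor that acts on splice site choice, stood at -0.13 ± 0.12, with 47 percent of its neighbours in level below it.

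The RBM genes, named for RNA-binding motifs and known for diverse steps of RNA metabolism, split evenly by sign. Of 6 tested, 3 were negative and 3 positive as deposited (RBM15B turned positive under each centring), and 0 passed (0 also at an unadjusted p under 0.05), with a median log2 fold change of 0.036. Of all tested genes 15.2 percent passed and 26.7 percent had an unadjusted p under 0.05, so 0 of 6 does not set these genes apart. RBM33 stood at -0.13 ± 0.13 and RBM15B, an adapter of the complex that methylates adenosine in mRNA, at -0.0042 ± 0.15 in the authors' deposited table. The SE of RBM15B was 1.25 times that of genes at its level. RBM38, a regulator of mRNA stability, stood at 0.077 ± 0.13 (the authors' deposited table, adjusted p = 0.762). The highest values of the family, RBM46 and RBM20, belonged to genes with low means, described below with their counts per library.

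**Figure D2:**
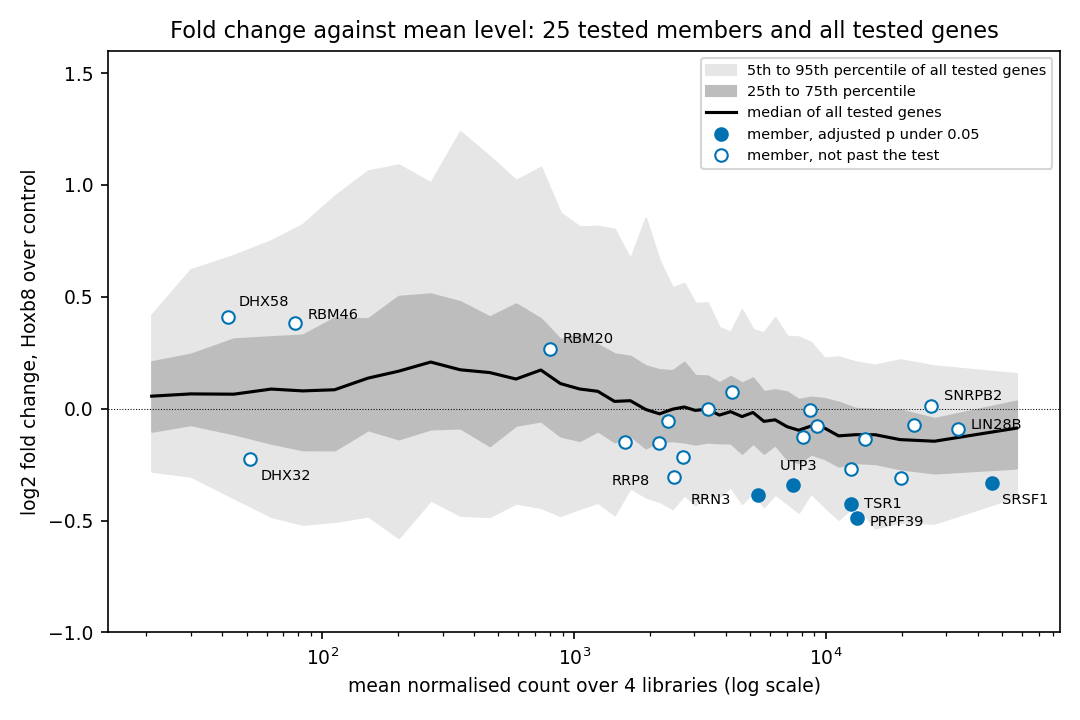
Deposited log2 fold change (Hoxb8 over control) of the 25 tested members against their mean normalised count on a log scale. The black line and grey bands give the median and percentiles of all tested genes in 40 bins of equal gene number; the line falls below 0 at high means, and the 5 called members (filled) lie below the dark grey band of the middle genes.

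Members of the other lists did not pass. NUP107, a scaffold protein of the nuclear pore, was nearest the threshold at -0.31 ± 0.12 and a mean of 19791 (adjusted p = 0.0614 in the authors' deposited table), and centred on genes of like level it stood at -0.17 (adjusted p = 0.409). EXOSC1, a subunit of the RNA exosome, stood at -0.15 ± 0.15, and CPSF7, a subunit of the cleavage factor that positions polyadenylation, at -0.057 ± 0.14 (the authors' deposited table, adjusted p = 0.555 and 0.851). The progenitor gene LIN28B, whose RNA-binding protein blocks maturation of let-7 microRNAs, stood at -0.091 ± 0.12 and a mean of 33411 (the authors' deposited table, adjusted p = 0.699). Its 95% interval, -0.33 to 0.15, just reached the value of SRSF1, and centred on genes of like level LIN28B lay on the other side of 0, at 0.052.

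Of the 4 tested RNA helicases 0 passed in the authors' DESeq2 table (0 also at an unadjusted p under 0.05), against 15.2 percent and 26.7 percent of all tested genes, and 4 genes are too few to read this from. The helicases DDX25, known from germ cells in mammals, and DDX28, which acts in assembly of the mitochondrial ribosome, had means of 2694 and 3407 and stood at -0.21 ± 0.13 and -0.0031 ± 0.15 (the authors' deposited table, adjusted p = 0.311 and 0.993). The other 2 helicases, DHX32 and DHX58, were low and are given by library below.

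**Figure D3:**
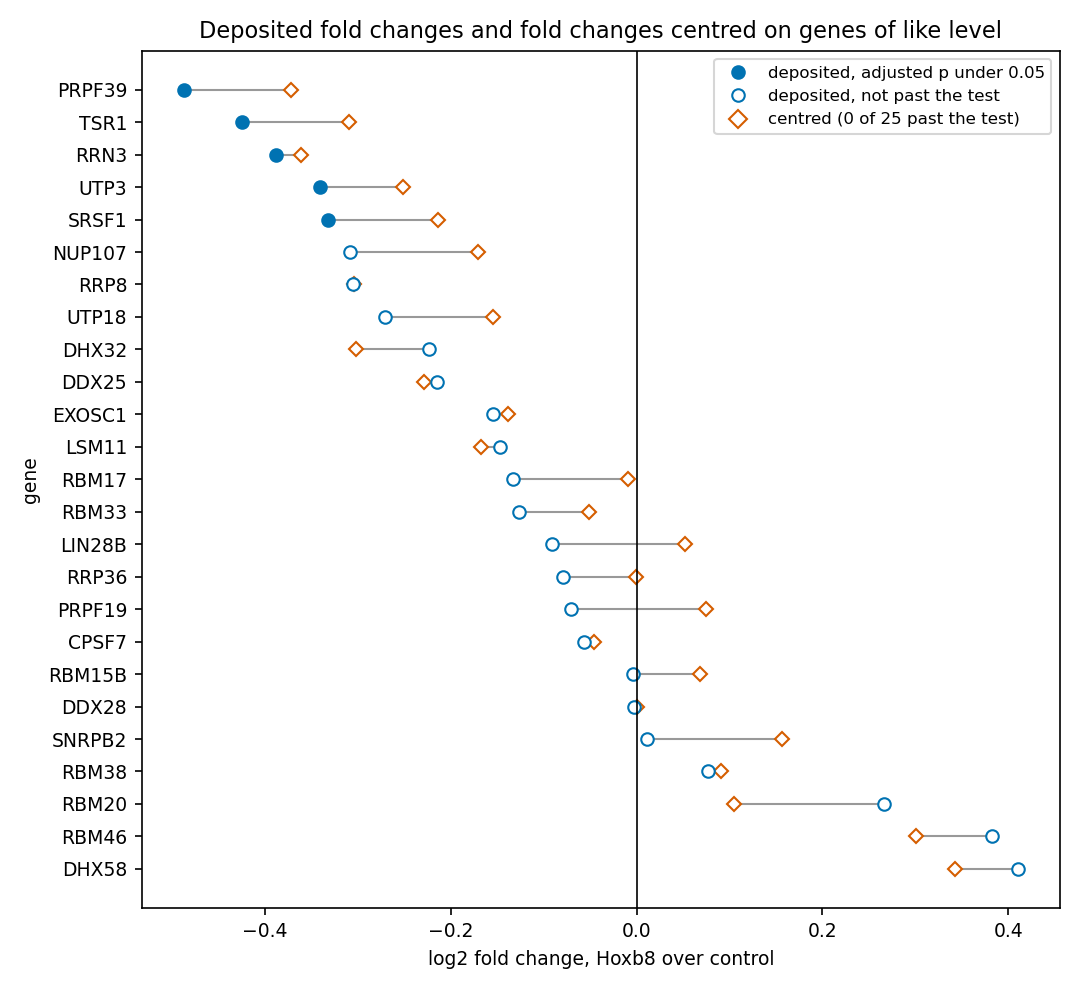
Deposited log2 fold changes (circles, filled where the adjusted p was under 0.05) and fold changes centred on up to 501 genes nearest in mean (diamonds) of the 25 tested members. The 5 called genes all move toward 0 and stay negative, having been named for falls larger than the medians subtracted. PRPF19, LIN28B, RBM15B and DDX28 move across 0.

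Counts per library could be recovered for members with a mean under 1000. A deposited mean is the sum of 4 whole read counts, each times what 1 read of its library adds to the mean, and for these genes exactly 1 set of 4 whole numbers gave the deposited mean within a tolerance of 3 times its rounding at 15 digits (1.5e-12 for RBM20 and PTBP3, less for the others). With a tolerance 1000 times wider, METTL11B, DHX58, DHX32 and RBM46 still had 1 set, but RBM20 had 65 and PTBP3 had 21, so their counts rest on the last digits of the mean. Every one of 2100 genes with means of 10 to 100, and of 211 with means of 500 to 1000, had exactly 1 such set. Which 2 libraries were Hoxb8 was read from the authors' own fold changes: in genes with 1 read in all, a positive deposited value puts that read in a Hoxb8 library and a negative one in a control library. The direction of the values per library is therefore not independent of the deposited fold changes. The libraries have no replicate number here. This was done only for means under 1000, so the 5 called members, with means of 5349.6 and above, have no values per library. The deposited fold changes of these low genes are moderated toward 0, and the counts show by how much. A permutation of 2 libraries against 2 cannot give a p under 0.333, so no test was made on these counts.

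DHX58, a cytoplasmic sensor of viral RNA in the RIG-I family rather than an RNA processing enzyme, had 64.6 and 50.4 normalised counts in the Hoxb8 libraries, against 24.0 and 29.4 in the control libraries. The ranges did not overlap, and the Hoxb8 mean was 2.15 times the control mean (1.11 on the log2 scale). The deposited log2 fold change was 0.41 ± 0.26 (adjusted p = 0.314 in the authors' deposited table). RBM46, known from germ cells in mice, had 88.3 and 106.5 in Hoxb8, against 56.4 and 60.8 in control. Its groups did not overlap either, at a ratio of 1.66 (0.73 on the log2 scale). The deposited log2 value of RBM46 was 0.38 ± 0.27 (adjusted p = 0.376 in the authors' deposited table). Of the 2100 genes with means of 10 to 100, 50 percent had groups that did not overlap, so separation alone is common at this level.

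The 2 Hoxb8 libraries differed widely in DHX32, with 57.0 and 26.6 normalised counts, against 65.8 and 57.7 in control. All control values lay above both Hoxb8 values, but the upper Hoxb8 library and the lower control library were almost equal. The ratio of 0.68 (-0.56 on the log2 scale) stood beside a deposited log2 fold change of -0.22 ± 0.26 (adjusted p = 0.644 in the authors' deposited table). That SE was 0.999 times that of the median gene of like mean, although the 2 Hoxb8 libraries lay far apart. RBM20, a splicing regulator known from heart muscle, where it acts on titin, had 949.3 and 818.0 normalised counts in Hoxb8, against 678.6 and 752.7 in control. Its groups did not overlap, as in 58.8 percent of the 211 genes with means of 500 to 1000. The ratio of 1.23 (0.30 on the log2 scale) compares with a deposited log2 value of 0.27 ± 0.18 (adjusted p = 0.341 in the authors' deposited table). METTL11B, which methylates protein N-termini and not RNA, had 1 and 4 reads in the Hoxb8 libraries, against 6 and 9 in control. The ratio of its normalised counts was 0.30 (-1.72 on the log2 scale), while its deposited log2 fold change was -0.11 ± 0.14. That SE belongs to the moderated value and does not show how closely so few reads fix the change. Both control values were the higher ones, but the reads are too few to read a difference from.

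**Figure D4:**
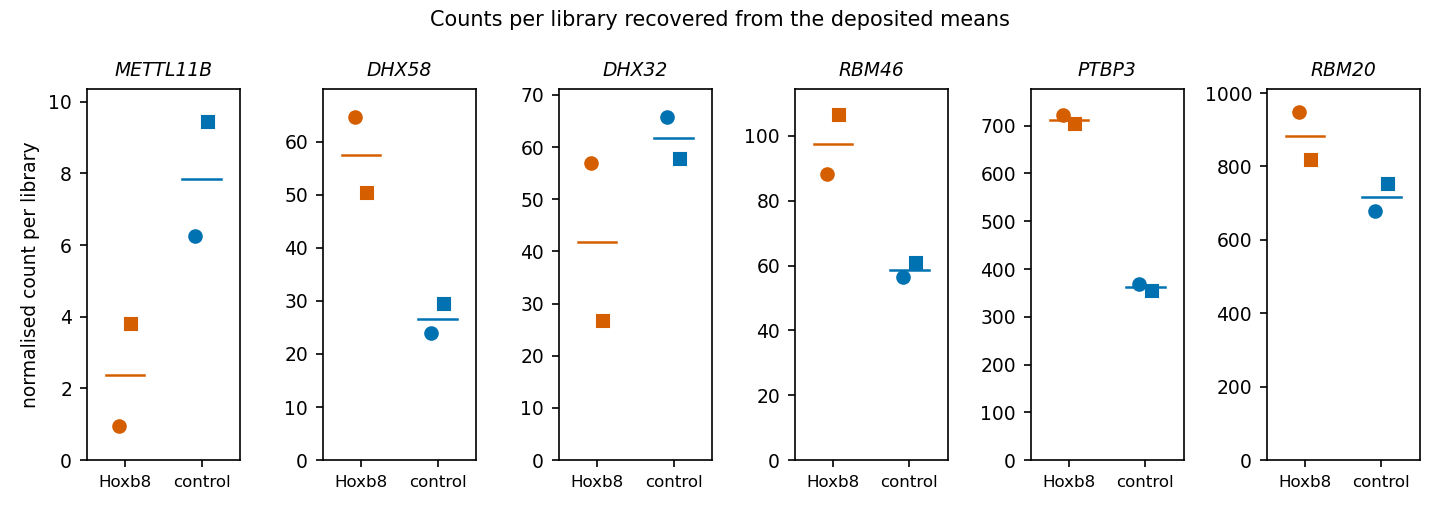
Normalised counts in each library for the 5 members with a mean under 1000 and for PTBP3, Hoxb8 left and control right; circles and squares are the 2 libraries of a group and bars their mean, on axes that start at 0. DHX58, RBM46, PTBP3 and RBM20 are higher in both Hoxb8 libraries, and the 2 Hoxb8 libraries of DHX32 lie far apart.

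Other genes of the same pathways were taken from lists of 403 symbols, of which 24 stood in the table and 20 were tested. Of these 20, 1 rose and 0 fell in the authors' deposited DESeq2 table, against 8.72 percent of all tested genes called higher and 6.49 percent called lower. A negative fold change was found in 16 of 20 (median -0.14). Centred on genes of like level these were 16 of 20 (median -0.10), and with genes over 10000 put at 0 they were 11 of 20. Among 4 further ribosome biogenesis genes GAR1, a protein of the particles that convert uridine to pseudouridine in ribosomal RNA, was nearest the threshold at -0.34 ± 0.13 (the authors' deposited table, adjusted p = 0.0668). LAS1L, a nuclease of large subunit maturation, stood at -0.22 ± 0.12, TAF1C, a subunit of the selectivity factor of RNA polymerase I, at -0.24 ± 0.16, and ZNHIT3 at -0.024 ± 0.14 by the authors' deposited table. With the 6 members of the ribosome biogenesis list, all 10 tested genes of both lists were thus negative as deposited, 3 of them past the threshold. Both lists were chosen with earlier results of these data known, and this is no count over every gene with a part in ribosome production. Centred on genes of like level all 10 were negative (median -0.24) and 0 passed, and with genes over 10000 put at 0, 8 of 10 were negative and 0 passed. Over all tested genes the share of negative values was 50.9 percent as deposited. It was 49.3 percent at means of 1000 to 5000, 61.6 percent at means of 5000 to 10000 and 74.4 percent over 10000, and these 10 genes lay in all 3 classes. For all tested genes it was 50 percent centred on genes of like level and 32 percent with genes over 10000 put at 0. The 32 percent is no share at like level, the median mean being 2340 over all tested genes and 6360 over these 10. As deposited, 6.49 percent of all genes were called lower, with 9.51 percent at means of 5000 to 10000 and 15.6 percent over 10000.

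The splicing regulator PTBP3, a paralogue of the polypyrimidine tract binding protein, was the 1 gene of these lists that rose. It had 721.5 and 703.9 normalised counts in the Hoxb8 libraries, against 369.6 and 354.4 in the control libraries. Libraries of 1 group differed little, and the groups did not overlap. These are the counts behind the call of PTBP3 itself, so they give that call no added support. The ratio of 1.97 (0.98 on the log2 scale) stood beside a deposited log2 fold change of 0.83 ± 0.19 (adjusted p = 0.000218 in the authors' deposited table). Groups did not overlap in 58.8 percent of the 211 genes with means of 500 to 1000 either. The counts of PTBP3 rest on the last digits of its mean, with 21 sets at the wider tolerance. The call held when centred on genes of like level (0.69 on the log2 scale, adjusted p = 0.00428) but not with scores divided by their spread (adjusted p = 0.193). SART3, a factor that recycles spliceosomal particles, stood at -0.37 ± 0.14 (adjusted p = 0.0503 in the authors' deposited table), and the splicing kinases CLK1 and CLK4 at -0.23 ± 0.13 and -0.086 ± 0.17.

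In the lists of tRNA and RNA modification, mRNA 3′ end, decay and export, and RNA polymerase machinery, 0 of 12 tested genes passed in the authors' deposited DESeq2 table. Of all tested genes 15.2 percent passed, so 0 of 12 does not set these genes apart. Within each of these 3 lists the 2 lowest p-values were those of RPUSD2, a pseudouridine synthase (-0.30 ± 0.15, adjusted p = 0.188 in the authors' deposited table), FTO, an RNA demethylase (-0.32 ± 0.17, adjusted p = 0.229), DIS3L, a cytoplasmic exosome nuclease (-0.23 ± 0.14, adjusted p = 0.297), SMG6, the endonuclease of nonsense-mediated decay (-0.10 ± 0.12, adjusted p = 0.648), and the transcription factor IIIC subunits GTF3C4 (-0.13 ± 0.12) and GTF3C2 (0.050 ± 0.13). The small RNA list had 0 tested members.

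Markers of other cell types had few tested genes, and their part in these results was not tested. By the authors' deposited table, the blood and endothelium list held LMO2, which rose (1.48 ± 0.17, adjusted p = 4.50e-16), and PECAM1 (-0.028 ± 0.27). Of the 12 symbols on that list only these 2 could be tested, and whether LMO2 stands for such cells here was not tested. The mesoderm marker UNCX stood at -0.067 ± 0.25 and the surface ectoderm marker GRHL2 at -0.49 ± 0.26, at means of 178.4 and 95.4.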

How the data were processed

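The 4 libraries (2 Hoxb8, 2 control) are represented by 1 table of the authors' comparison on chicken genes of Ensembl release 85, build Galgal4, per the file's name. Per the submitters' processing notes, galGal4, Subread, featureCounts, DESeq and DESeq2 were used; their roles, versions and settings, and the strand of the counting, were not given in the sources used here. In the file, the authors' deposited signal is the mean over libraries of counts divided by size factors. The authors' deposited log2 fold changes and standard errors are moderated toward 0, the deposited score is their ratio (largest deviation 9.24e-14), and the deposited p-values are two-sided normal values of that score, with Benjamini-Hochberg adjustment over 12574 genes (largest deviation 1.89e-15).

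Members and lists were chosen with earlier results of these data known. A gene was called at the authors' adjusted p under 0.05. Centring subtracted a running median over 501 genes by rank of the mean, shortened at the ends of the range, where SRSF1 had 472 neighbours. The centred fold changes were then divided by the deposited standard error, and the p-values were adjusted anew (Python 3.11.15, SciPy 1.17.1). The steps were tested on simulated data whose planted changes were larger than any deposited change of a member. That test therefore does not show how centring treats changes of the members' size. Read counts were solved from the 15 printed digits of the means, with size factors of 1.053 and 1.051 on the Hoxb8 side and 0.958 and 0.954 on the control side, the sides being set by the sign of the deposited fold change of genes with 1 read, a step chosen after seeing the data, as was the estimator of the scores' central spread. Named genes are every called member, the lowest p-values and highest means of each list, called genes of the other lists with the 2 lowest p-values in each, and members on either side of the filter; in practice every member is named. The planned edgeR fit needs counts per library for all genes and was not run. A current symbol in the reference gene table of assembly GRCg7b was found for 25 of 26 members (not PRPF39); 13 of these overlap another gene there, among them SRSF1 (VEZF1), UTP3 (RUFY3), TSR1 and RRN3, and reads of overlapping genes cannot be separated here.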

Additional observations from a re-analysis of the deposited data

How the results depend on the processing

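The 5 calls among the members, all lower, were the same 5 genes at a mean of at least 50 or 1000, without any filter, and centred on the median of all genes. At an adjusted p under 0.1 NUP107 joined them, as the 1 call of the export list. At an adjusted p under 0.01 only TSR1 remained, so 1 ribosome biogenesis and 0 splicing genes were called, against 1184 of all genes (431 lower). With fold changes centred on genes of like level, with the median of genes over 10000 set to 0, or with scores divided by their central spread, 0 members were called, in either list. Of all genes, 1584, 2210 (1849 higher, 361 lower) and 314 (239 higher, 75 lower) were then called, against 1913 as deposited (1097 higher, 816 lower); at a mean of at least 1000, 560 were higher. The central spread (1.69) was the scaled median absolute deviation, which was chosen after seeing the data: an estimate from the quantiles that lie 1 SD either side of a normal mean was computed first (1.74), and was replaced to match an earlier treatment of this table. With it 0 members, 0 of the other pathway genes and 269 of all genes were called (206 higher, 63 lower). Leaving out METTL11B and DHX58 could change no call, as neither was called and the adjusted p-values were kept as deposited. The members' median log2 fold change ran from -0.147 (mean of at least 1000) to -0.00865 (genes over 10000 at 0), negative under each of these settings. Only the centrings and the shift of genes over 10000 could move single fold changes. The cut-offs and the divided scores left them as deposited, and the filters changed only which members counted. Over these settings the adjusted p ran from 0.00404 to 0.505 for TSR1, 0.0136 to 0.664 for PRPF39, 0.0328 to 0.773 for SRSF1, 0.0345 to 0.778 for RRN3 and 0.0346 to 0.780 for UTP3. The fold changes of these 5 genes stayed negative, but no shift used was large enough to turn them.

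Among the other pathway genes SART3 was called at a mean of at least 50 (2 calls with PTBP3, 1 lower) and of at least 1000 (1 lower, 0 higher, since PTBP3 is then not tested). At an adjusted p under 0.1 there were 3 calls, 2 of them lower, and with scores divided by their spread 0. Directions turned only in genes that were never called. With genes over 10000 at 0 these were CPSF7 (0.0679), DDX28 (0.122), LIN28B (0.0337), PRPF19 (0.0538), RBM15B (0.121), RRP36 (0.0456), ALKBH5 (0.0155), CLK4 (0.0389), RPP38 (0.0202), SMG6 (0.0216) and ZNHIT3 (0.101). Centred on genes of like level they were DDX28 (0.00068), LIN28B (0.0522), PRPF19 (0.0745) and RBM15B (0.0682), and on the median of all genes DDX28 (0.00222) and RBM15B (0.00113). No paired analysis was possible because the file holds 1 mean per gene and the libraries behind the size factors carry no replicate number. Leaving out single libraries and other count models were not run, for the same reason.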
